A study of Mus musculus with 2 samples.

Results

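The cells described here were mouse embryonic stem cells of the PD100 library in which at least 1 UMI (unique molecular identifier, 1 captured transcript) of Klf4, Nanog, Esrrb or Tbx3 was counted. They were 200 of the 777 PD100 cells considered (25.7%, 22.7 to 29.0, exact binomial interval), and of 1714 cells that passed the filters in the whole series. They are called factor-positive cells, and the remaining 577 cells, with 0 UMIs of the 4 genes, factor-negative cells. Intervals are at 95% throughout and take in counting error alone.

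Both libraries came from the Terc knock-out line DKO741, derived from E14 embryonic stem cells by replacing both alleles of the telomerase RNA gene in sequence with a PGK-neo construct flanked by loxP sites, the neo gene of the first allele having been removed by Cre delivered with an adenovirus. The labels put PD100 at passage 100 and PD800 at passage 800, the former preceding and the latter following the onset of ALT (alternative lengthening of telomeres). The genotype was the same in both, no wild-type library was analysed here, and DKO741 is 1 line. The line was maintained on mouse embryonic fibroblasts and brought to feeder-free culture for experiments, and single cells were captured with inDrops, a droplet method. Each passage had 1 library, so cells were not treated as replicates, no test was made, and library and passage cannot be told apart. The PD100 table held 1291 barcodes with 2073033 UMIs. Of these barcodes 814 had at least 1000 UMIs and at most 20% mitochondrial UMIs, and 37 endoderm-high cells, with 5 or more UMIs of Col4a1, Col4a2, Srgn, Gata6 and Gata4 together, were set aside. Within the 777 cells, 1 cell had 4 such UMIs and 1 had 3, while 2 of the cells set aside had 5. Over all barcodes, 21 barcode sequences occurred in both libraries, and 8 over the cells that passed. Terc had 0 UMIs in factor-positive and in paired cells. A count of 0, read as up to 3 UMIs, allows up to 6.17 CPM (UMIs scaled to a common total, counts per 1e6) in the factor-positive cells.

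Mouse embryonic stem cells in serum move between a naive state, close to the inner cell mass of the blastocyst, and states further along towards the epiblast. Klf4, Nanog, Esrrb and Tbx3 are transcription factors of the naive network. Their levels vary from cell to cell, while the core factors Pou5f1 (Oct4) and Sox2 are present in naive and primed cells alike. Zfp42, known as Rex1, is the classical reporter gene of the naive state.

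Of 18 other naive genes with enough counts, 4 were 1.5-fold or more higher in factor-positive cells than in factor-negative cells paired on depth. These were Zfp42, Klf2, Tcl1 and Jam2. Over all genes with enough counts the share was 6.39%. Against all 577 factor-negative cells, weighted to the same depth, Klf2 was under 1.5-fold, at a log2 ratio of 0.425. RefSeq promoters (GRCm38.p6, 250 bases before to 50 after the start, 5′ to 3′ on the gene's strand) were found for 3 of these 4 genes, and for 10 of the 18. They are shown because these genes were higher together. Short motifs of 5 kinds were searched on both strands: GGGNGTGG (KLF family), AAGGTCA (Esrrb), TAATGG (Nanog), AGGTGTGA (T-box) and ATTTGCAT (octamer, bound by Pou5f1). The matches found did not overlap. Capitals mark a match.
Zfp42 (chr8:43306960-43307259, minus strand): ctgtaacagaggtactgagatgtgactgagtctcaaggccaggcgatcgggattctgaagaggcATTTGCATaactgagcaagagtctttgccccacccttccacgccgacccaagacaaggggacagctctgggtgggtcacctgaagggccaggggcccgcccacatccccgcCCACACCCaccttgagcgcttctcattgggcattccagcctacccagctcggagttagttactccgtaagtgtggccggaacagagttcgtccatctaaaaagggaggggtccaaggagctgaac
Klf2 (chr8:72318812-72319111, plus strand): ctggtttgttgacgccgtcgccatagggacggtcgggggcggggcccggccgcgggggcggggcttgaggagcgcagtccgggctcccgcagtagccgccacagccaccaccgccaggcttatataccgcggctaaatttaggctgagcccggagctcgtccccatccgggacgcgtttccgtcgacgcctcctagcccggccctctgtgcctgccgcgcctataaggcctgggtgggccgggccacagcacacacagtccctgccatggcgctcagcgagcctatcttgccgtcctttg
Tcl1 (chr12:105222688-105222987, minus strand): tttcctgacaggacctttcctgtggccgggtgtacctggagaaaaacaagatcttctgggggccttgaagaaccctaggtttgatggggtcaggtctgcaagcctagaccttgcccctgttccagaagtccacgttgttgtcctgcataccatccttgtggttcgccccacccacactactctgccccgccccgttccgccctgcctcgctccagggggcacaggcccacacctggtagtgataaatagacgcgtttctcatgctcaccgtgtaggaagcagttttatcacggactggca
The Zfp42 promoter held 1 octamer match starting at position -186 from the RefSeq start site and 1 KLF match, on the opposite strand, starting at -75. The last bases of the Zfp42 window were not found in the reference transcripts searched, unlike those of Klf2 and Tcl1. Its start site, and so these positions, are less certain. Neither the Klf2 nor the Tcl1 window held a match to any of the motifs. Over 32851 promoters of the same length, 17.6% held the KLF letters, 4.72% the Esrrb letters, 7.73% the Nanog letters, 1.28% the T-box letters and 1.74% the octamer letters. Among the other naive genes with a promoter in the table, Mybl2 alone held a match, to the KLF letters.

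The members were chosen by their counts of the 4 factors, so the factor levels only describe the choice. Nanog, a homeodomain factor of the naive network, had 129 UMIs in 88 cells, with at most 7 in 1 cell. Klf4, a zinc finger factor downstream of LIF, had 115 UMIs in 73 cells, with at most 9. Esrrb, an orphan nuclear receptor, had 56 UMIs in 44 cells and Tbx3, a T-box factor, 43 UMIs in 34 cells. Detection was sparse in the members themselves. Of the 200 cells, 116 had 1 factor UMI, 54 had 2, 16 had 3, and the highest cell had 9. A single factor was seen in 167 cells, 2 factors in 27, 3 factors in 6, and all 4 in none. With 200 cells, 0 cells with all 4 factors allow a share of up to 1.83%.

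Pairs of factors were seen together in few cells, given here as a further description of the choice. Nanog and Klf4 were both detected in 13 cells, Nanog and Esrrb in 10, and Klf4 and Esrrb in 8. Each of the 3 pairs with Tbx3 was observed in 4 or 5 cells.

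Depth bore on membership. Among cells with at least 1000 and under 1500 UMIs, 21 of 163 were factor-positive (12.9%), and among cells with at least 2000 and under 3000 UMIs, 93 of 305 (30.5%). Factor-positive cells had a median of 2286 UMIs and factor-negative cells of 2047. Expected after thinning each cell to 1000 UMIs, the share was 15.1%. A factor-negative cell is therefore a cell without a captured UMI, not a cell shown to lack the factors. In the endoderm-high cells, which had a median of 2418 UMIs, Nanog had a UMI in 1 of 37 cells (2.70%, 0.0684 to 14.2), Esrrb in 1, Tbx3 in 2 and Klf4 in 8 (21.6%, 9.83 to 38.2). For Klf4 this share exceeded the 9.40% of the 777 cells. Barcodes left out by the filters held 22 factor UMIs, at 89.1 CPM, against 197 CPM in the 777 cells.

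**Figure D1:**
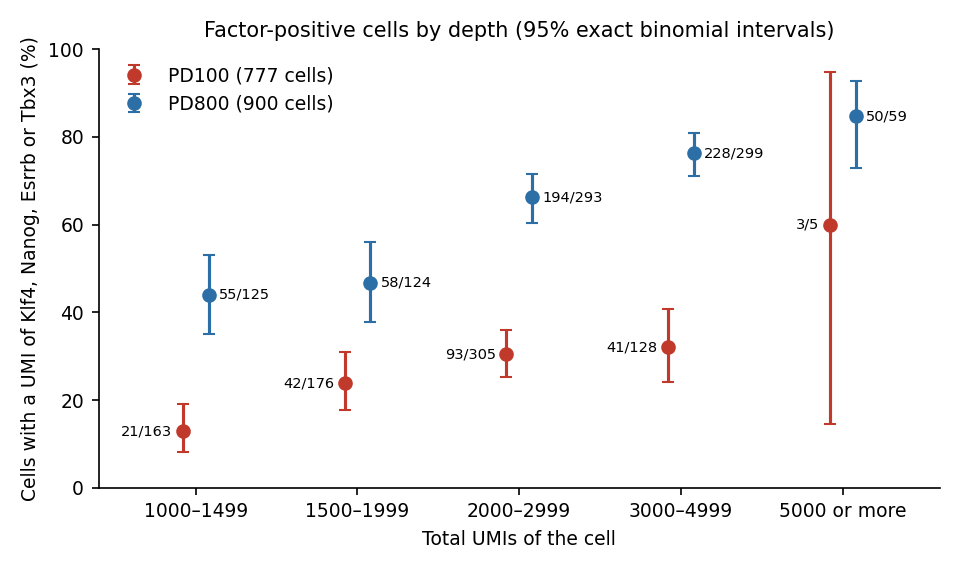
Percent of cells with at least 1 UMI of Klf4, Nanog, Esrrb or Tbx3 (y axis) by the total UMIs of the cell (x axis), with 95% exact binomial intervals and the counts of cells beside each point. The PD100 share was 12.9% in the shallowest class and 32.0% from 3000 to under 5000 UMIs, and the PD800 share 44.0% and 76.3%.

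To compare cells of equal depth, each factor-positive cell was paired with the factor-negative cell nearest in total UMIs. All 200 were paired, at medians of 2286 and 2285.5 UMIs, with a median gap of 3 UMIs and a largest gap of 7.84%. Genes with at least 50 UMIs over both groups are called tested genes. There were 3129, and the 4 factors were left out of them and of the totals. Of these genes 200 (6.39%) were 1.5-fold or more higher in factor-positive cells and 162 (5.18%) 1.5-fold or more lower, with a median log2 ratio of 0.00. The choice of partners mattered at this depth. When factor-positive cells were compared with all 577 factor-negative cells, weighted to the same depth, 92 of the 200 higher genes and 95 of the 162 lower genes were still past 1.5-fold, and 199 and 160 kept their direction. The same factor-positive cells enter this second ratio, and the 577 factor-negative cells include the 200 paired ones. Staying past 1.5-fold is therefore partly built in. This second ratio is called the all-cell ratio. It is given below for the leading genes and for each named gene whose ratio was past 1.5-fold in the pairs and under it over all cells.

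Zfp42 was the most widely detected of these 4 genes. It had 435 UMIs in factor-positive cells and 258 in paired cells, or 895 CPM (813 to 984, exact Poisson) against 533 CPM (470 to 602). The log2 ratio was 0.75 (0.52 to 0.98, exact conditional interval). Per cell the factor-positive group ranged from 0 to 13 UMIs with a median of 2, and the paired group from 0 to 11 with a median of 0, so the groups overlapped widely. A Zfp42 UMI was present in 151 of 200 factor-positive cells (75.5%) and 98 of 200 paired cells (49.0%). In the endoderm-high cells it was present in 4 of 37 (10.8%, 3.03 to 25.4).

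Zfp42 also differed between cells by the number of factor UMIs. It was at 479 CPM (441 to 519) in the 577 cells with 0, at 764 CPM (663 to 876) in the 116 cells with 1, and at 1057 CPM (925 to 1203) in the 84 cells with 2 or more. These 3 intervals did not overlap. The all-cell ratio was 0.90. Within classes of depth the log2 ratio to all factor-negative cells was 0.42 (-0.46 to 1.20) in the 21 factor-positive cells under 1500 UMIs, 0.83 (0.37 to 1.28) from 1500 to under 2000, 0.90 (0.63 to 1.17) from 2000 to under 3000, and 0.99 (0.66 to 1.33) at 3000 UMIs and above. The interval of the shallowest class included 0.

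Zfp42 was higher than in factor-negative cells with each factor taken singly. In the 53 cells with Klf4 as the only factor, Zfp42 was at 1064 CPM (892 to 1260). The 65 cells with Nanog alone were at 771 CPM (639 to 923), the 26 with Esrrb alone at 700.1 CPM (500.2 to 953), and the 23 with Tbx3 alone at 769 CPM (557 to 1036). These 4 intervals overlapped one another, and that of Esrrb also overlapped the 441 to 519 CPM of factor-negative cells. After each cell was thinned to 1000 UMIs before membership was assigned, the Zfp42 log2 ratio was 0.49, under the size rule.

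The other naive genes that passed 1.5-fold were thinner. Klf2, a Krüppel-like factor that acts beside Klf4, had 190 UMIs against 113 (391 and 234 CPM), a log2 ratio of 0.74 (0.40 to 1.09). It was detected in 88 and 60 cells. All factor-negative cells lay above their paired subset, at 295 CPM, and the all-cell ratio of 0.42 was under 1.5-fold. Tcl1, a co-activator of the kinase Akt, had 49 UMIs against 18, in 29 and 12 cells, with a log2 ratio of 1.44 (0.63 to 2.31) and an all-cell ratio of 1.16. Jam2, a junctional adhesion molecule, had 53 UMIs against 31, in 39 and 20 cells (0.77, 0.10 to 1.46, and 0.88 over all cells). In pairs below the median depth the ratio of Jam2 was 0.13 and that of Klf2 0.53, both under the size rule. Klf2 and Tcl1 had 0 UMIs in the 37 endoderm-high cells, where 0 cells allow a share of up to 9.49%.

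Over the whole naive list, 28 of 29 genes had a UMI and 18 were tested. Of these 4 were 1.5-fold or more higher, none was 1.5-fold or more lower, and 13 lay above 0. Over all tested genes the shares were 6.39% higher and 5.18% lower. The PD100 counts of each later list are to be read beside these shares. The median log2 ratio was 0.16, beside 0.00 over all tested genes, and an interval for that median from the ranks of the 18 genes, which are not independent, ran from -0.0058 to 0.56 and so included 0. Just under the size rule was Mybl2, a cell cycle transcription factor, at 0.56 (0.17 to 0.96). Dppa5a, an RNA-binding protein of embryonic stem cells, was at 9747 CPM and 8687 CPM, a log2 ratio of 0.17 (0.11 to 0.23). By single factor it was not uniform. It was at 11722 CPM with Klf4 alone and 10303 CPM with Nanog alone, but at 7946 CPM with Esrrb alone and 7851 CPM with Tbx3 alone. All factor-negative cells were at 8750 CPM. The lowest ratio of the list was that of Klf5, at -0.33 (-0.77 to 0.11). The remaining 11 genes of the list were untested, among them Tfcp2l1 (13 UMIs against 8), Nr5a2 (9 against 3) and Dppa3 (16 against 20).

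The naive genes were also counted together in each cell. Of Zfp42, Klf2, Tcl1, Jam2 and Mybl2, 3 or more were detected in 62 of 200 factor-positive cells (31.0%) and in 25 of 200 paired cells (12.5%). None of the 5 was detected in 18 and 54 cells. These 5 genes were picked after their values had been seen, so the counts describe them and add no support.

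**Figure D2:**
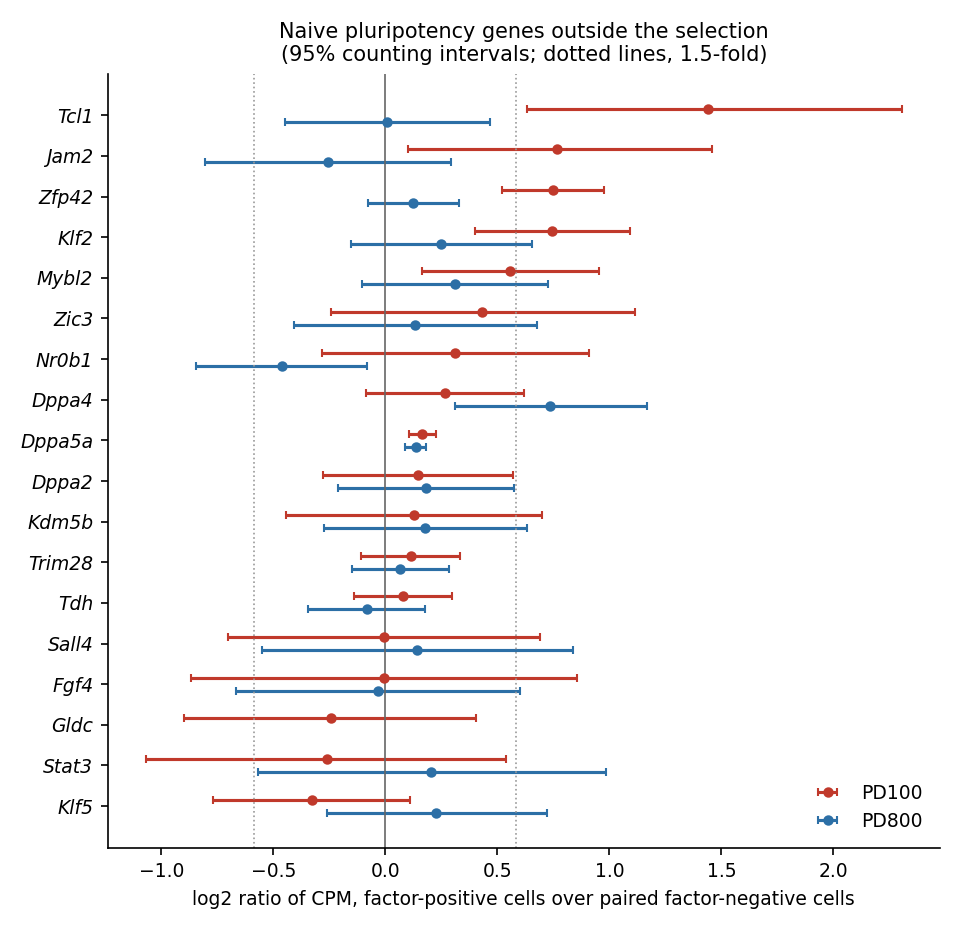
Log2 ratio of CPM between factor-positive and paired factor-negative cells (x axis) for the 18 tested naive genes (y axis), with 95% counting intervals, in PD100 and, where tested, in PD800. In PD100 Tcl1, Jam2, Zfp42 and Klf2 lay past the dotted 1.5-fold line, at 0.74 to 1.44, and in PD800 these 4 lay between -0.25 and 0.25.

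The core pluripotency genes did not move past the size rule. Of 15 tested genes 0 were 1.5-fold or more higher or lower, and the median log2 ratio was -0.12. Pou5f1 had 269 UMIs against 300, a log2 ratio of -0.16 (-0.41 to 0.08), and was detected in 129 and 145 cells. Sox2 had 84 against 106 UMIs (-0.34, -0.77 to 0.09), and in pairs below the median depth its ratio was 0.70. The list ran from Epcam, an epithelial adhesion molecule, at -0.37 to Tcf3 at 0.45. Tcf3 here is the gene at chr10:80409514-80433647 and not Tcf7l1, which is in the formative and primed list.

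Among formative and primed genes 9 of 30 were tested, 0 of them 1.5-fold or more higher and 2 lower, with a median of -0.33. The lower genes were Krt8, a keratin of simple epithelia, at -0.95 (-1.69 to -0.24) and Dnmt3a, a de novo DNA methyltransferase, at -0.62 (-1.34 to 0.07). Otx2, a transcription factor of the early epiblast, was at 0.41 (-0.27 to 1.11). The interval of Dnmt3a included 0, as did that of Otx2. The Krt8 ratio was -2.17 in pairs below the median depth and -0.21 in pairs above it, where it was under the size rule.

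In the list of keratins, S100a proteins and surface genes 8 were tested, 0 of them 1.5-fold or more higher and 2 lower. The median was -0.46, the genes ranged from -0.95 to 0.24, and with the endoderm-high cells kept the median was 0.002. Lgals1, galectin-1 (chr15:78926725-78930465, plus strand, GENCODE M21 on GRCm38), had 269 UMIs against 386, or 554 and 798 CPM, a log2 ratio of -0.53 (-0.76 to -0.30). Its level was 829 CPM (779 to 881) with 0 factor UMIs, 663 CPM (570 to 768) with 1 and 418 CPM (337 to 514) with 2 or more, and these intervals did not overlap. With Nanog as the only factor Lgals1 was at 791 CPM (657 to 944), near the level of factor-negative cells. It was at 441 CPM (333 to 573) with Klf4 alone, 578 CPM (398 to 811) with Esrrb alone and 554 CPM (377 to 787) with Tbx3 alone. Of the single factors, Klf4 alone gave an interval clear of that of factor-negative cells. By depth the log2 ratio of Lgals1 was -0.07 (-0.82 to 0.61) under 1500 UMIs and -0.83 (-1.23 to -0.45) at 3000 UMIs and above.

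Krt8 was at 114 CPM (95.6 to 134), 70.8 CPM (42.6 to 111) and 32.2 CPM (12.9 to 66.3) in the same 3 classes, on 26 UMIs in factor-positive cells and 50 in paired cells. Krt18, its keratin partner, was at 218 CPM (193 to 246), 164 CPM (119 to 220) and 59.8 CPM (31.8 to 102), although the paired ratio of -0.44 (-0.96 to 0.07) stayed under the size rule and the all-cell ratio was -0.74. S100a6, a calcium-binding protein, had 64 UMIs against 103 (-0.69, -1.17 to -0.23), but its all-cell ratio was -0.35. Krt8 belongs to both the formative and the keratin list. With the endoderm-high cells kept, where it was at 842 CPM, its ratio turned to 0.32.

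**Figure D3:**
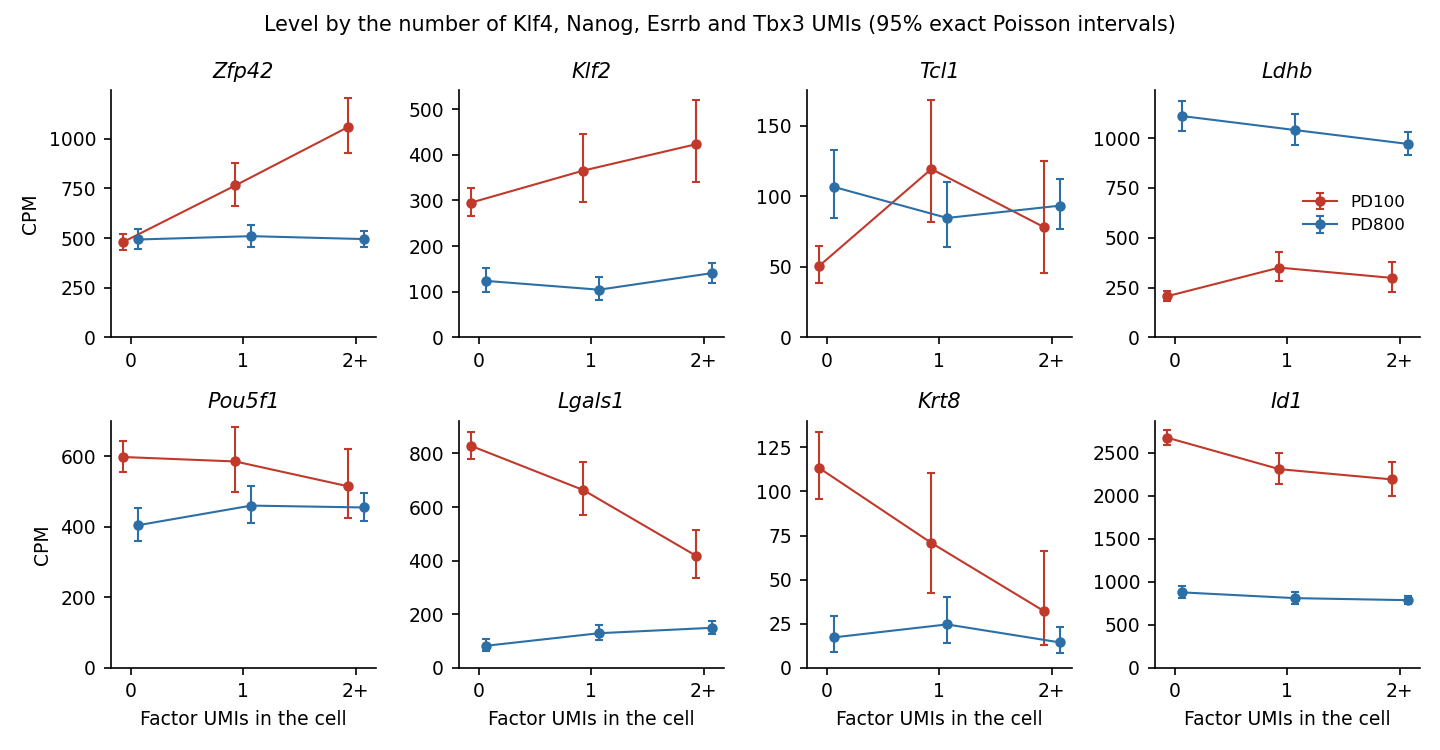
CPM (y axis) of 8 genes in cells with 0, 1 and 2 or more UMIs of the 4 factors (x axis), with 95% exact Poisson intervals, for PD100 (577, 116 and 84 cells) and PD800 (315, 230 and 355 cells). In PD100 Zfp42 went from 479 to 1057 CPM and Lgals1 from 829 to 418 CPM across the classes, while in PD800 Zfp42 stayed between 493 and 509 CPM.

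The signalling lists that feed the naive network held few tested genes. For LIF and Stat3 0 of 8 were 1.5-fold or more higher and 1 lower, Pim1, a kinase induced by LIF, at -0.59 (-1.31 to 0.11), with an all-cell ratio of -0.29. Socs3, a feedback inhibitor of the same pathway, was at 0.10. In the BMP list of 5 genes none passed in either direction. Id1, a target of BMP signals and abundant here, had 1095 UMIs against 1421, a log2 ratio of -0.38 (-0.50 to -0.27), and was detected in 152 and 176 cells. Of the Nodal list 6 genes were tested and none passed. Among its untested genes, Smad2 had 19 UMIs against 6 (1.66, 0.28 to 3.27) and Pcsk6 1 against 8 (-3.01, -8.48 to -0.11). Lefty1, an inhibitor of Nodal, had 72 UMIs against 92 (-0.36, -0.82 to 0.10) and Lefty2 63 against 72 (-0.20, -0.71 to 0.31), and in pairs below the median depth these ratios were 0.32 and 0.78.

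In the ERK list 1 of 6 genes was 1.5-fold or more lower, Phlda1, at -0.70 (-1.56 to 0.13), and at -0.49 in pairs above the median depth. Of the untested ERK genes, Fosl1 had 9 UMIs against 0, Fos 6 against 0 and Jun 0 against 7. Ctnnb1, which codes for beta-catenin, was the tested gene of the Wnt list, at 0.79 (0.02 to 1.60) on 40 and 23 UMIs, and at 0.43 in pairs above the median depth. Tcf7l1, untested and also in the formative and primed list, had 0 UMIs against 9. Of the imprinted list 5 genes were tested and all lay below 0. Phlda2, a placental growth regulator, was the lowest of them at -0.58 (-0.93 to -0.23), just short of the size rule, and Meg3 was at -0.40 (-0.70 to -0.10). Under the 50-UMI minimum, H19, an imprinted noncoding RNA, had 39 UMIs against 8 (2.28, 1.16 to 3.59), and Igf2, its growth factor neighbour, 7 against 0.

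Metabolic genes differed singly rather than by list. Among 15 glycolysis genes the median was -0.03, and 1 passed the size rule. This was Ldhb (chr6:142490249-142507957, minus strand), the lactate dehydrogenase subunit of oxidative tissues, with 159 UMIs against 77, in 83 and 48 cells (1.04, 0.64 to 1.45, and 0.72 over all cells). Ldha, the subunit of glycolytic tissues, was on the other side, with 1511 UMIs against 1822 (-0.28, -0.38 to -0.18). Slc2a3, a glucose transporter, was at 0.53 (0.13 to 0.93) and Slc16a3, a lactate exporter, at -0.56 (-1.01 to -0.11).

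In the glycine, serine and one-carbon list 2 of 13 genes were 1.5-fold or more higher and 1 lower, with a median of 0.12. Shmt2, the mitochondrial serine hydroxymethyltransferase, was at 0.86 (0.25 to 1.5) and Psph, the last enzyme of serine synthesis, at 0.78 (0.12 to 1.45), though at 0.28 in pairs below the median depth. Mthfd2, the next mitochondrial step after Shmt2, was at -0.65 (-1.25 to -0.06), and its all-cell ratio of -0.49 was under 1.5-fold. Of 10 tested genes of the mitochondrial genome none passed 1.5-fold and 8 lay above 0, with a median of 0.16. The median mitochondrial share per cell was 1.25% in factor-positive and 1.13% in paired cells, and its part in this was not tested.

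Cell cycle lists had medians near 0. Of 24 S phase genes 12 lay above 0, 0 were 1.5-fold or more higher and 1 was lower, Pcna, the sliding clamp of DNA polymerase, at -0.72 (-1.27 to -0.19), with a median of 0.04. Cdc45, a replication fork protein under the 50-UMI minimum, had 7 UMIs against 31 (-2.15, -3.58 to -0.94). Of 23 G2 and mitosis genes 15 lay above 0, with a median of 0.09. None was lower and 2 were higher, the spindle protein Tpx2 at 0.65 (0.19 over all cells) and the cyclin Ccna2 at 0.60 (0.20 over all cells). Cdca3 (0.58, 0.15 to 1.02) and Cenpa (0.33, 0.04 to 0.62) were under the size rule with intervals above 0. In the telomere and ALT list of 15 tested genes 1 passed, Rpa1, a subunit of replication protein A, at 0.60 (0.06 to 1.14) with an all-cell ratio of 0.34, and the median was -0.01. Under the 50-UMI minimum, the recombination protein Rad51ap1 had 20 UMIs against 4 (2.32, 0.74 to 4.32) and Nbn, of the complex that senses DNA breaks, 24 against 6 (1.99, 0.67 to 3.57). Also untested, Blm (12 against 19), Terf2 (5 against 11), Rtel1 (2 against 5) and Wrap53 (20 against 24) lay below 0. Terf2ip (22 against 18) and Pot1a (5 against 4) lay above 0. The intervals of all of these other untested genes included 0. Hmgn1, a nucleosome-binding protein, had 437 UMIs against 402, a log2 ratio of 0.11 (-0.08 to 0.31).

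The remaining lists showed little. DNA methylation genes had 0 of 7 higher and 1 lower, Dnmt3a. Polycomb genes had 0 of 10 past the size rule and a median of -0.09. In the p53 list 1 of 10 was lower, Phlda3 at -0.68 (0.08 in pairs above the median depth), and in the stress list 1 of 11, Atf4 at -0.68 (-1.39 to 0.0038, and -0.37 over all cells). The germ cell list had 3 tested genes, Dppa2, Dppa4 and Dppa5a, all of them in the naive list too, and the 2-cell list 1, Eif1a, at 0.07. A Zscan4 family UMI was present in 0 of 200 factor-positive cells and in 1 of 200 paired cells, which held 10 such UMIs.

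**Figure D4:**
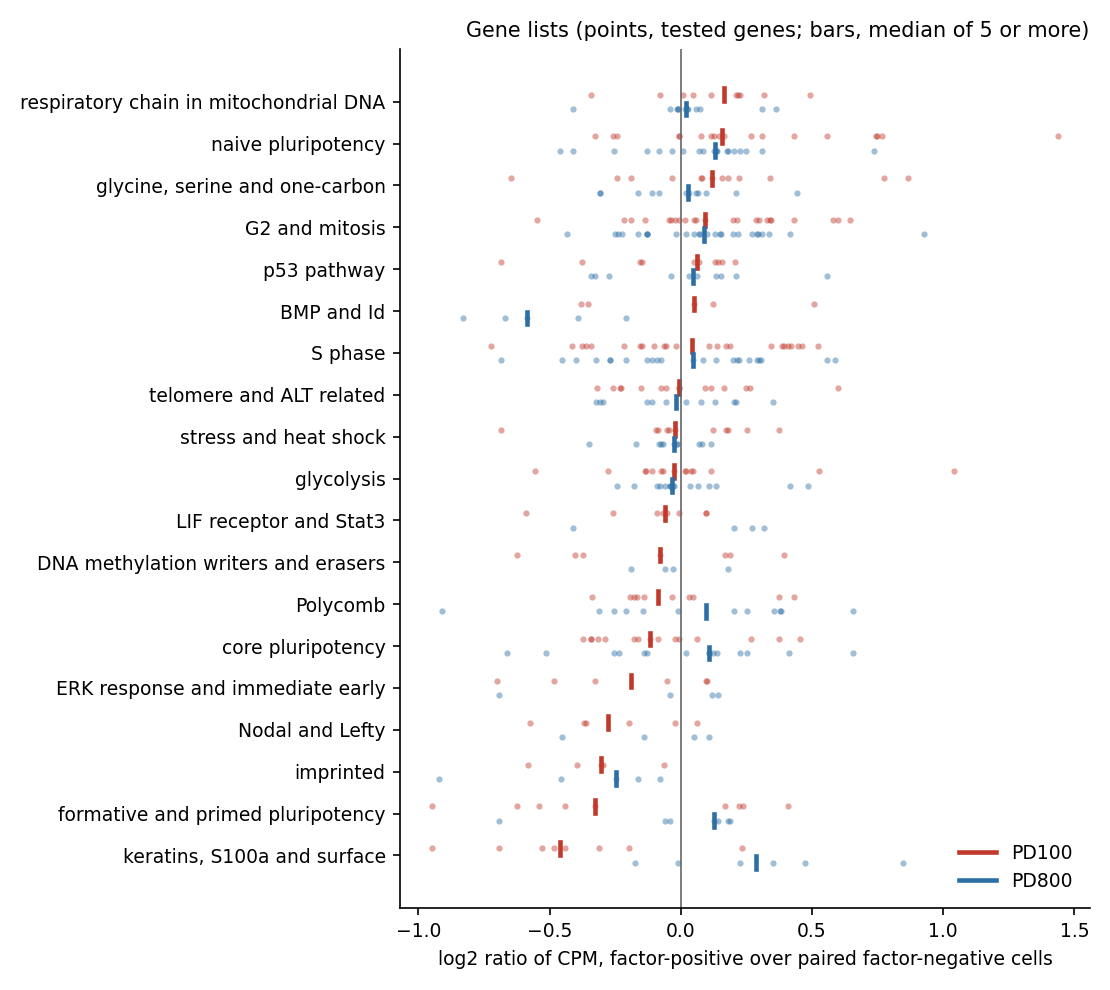
Log2 ratio of CPM between factor-positive and paired cells (x axis) for each tested gene of the lists with 5 or more tested PD100 genes (y axis), in PD100 and PD800. Bars give medians of 5 or more genes. In PD100 the keratin list had the lowest median, -0.46, and the mitochondrial and naive lists, both at 0.16, the highest.

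Over all tested genes, the 12 highest by the interval end nearer to 0 were Khdc3, Ctnna1, Ube2b, Ldhb, Tcl1, Tmco1, H1f0, Edc4, Stmn2, Zfp42, Gon4l and Stmn1, at 0.75 to 1.66. Of these 12, 10 were still past 1.5-fold in the all-cell ratio, the exceptions being Ube2b (0.49) and Stmn1 (0.39). Khdc3, an oocyte and embryonic stem cell protein that guards genome stability, had 57 UMIs against 18, of which 15 were in 1 cell. In pairs below the median depth its ratio was -0.29. Ctnna1, alpha-catenin, which ties cadherins to actin, had 93 UMIs against 40, in 55 and 26 cells (1.21, 0.66 to 1.78, and 1.24 over all cells). It stood at 87.1, 157 and 234 CPM with 0, 1 and 2 or more factor UMIs.

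Stmn2, a microtubule-destabilising stathmin, had 282 UMIs against 157 (0.84, 0.55 to 1.13), and stood at 330 CPM (299 to 364), 540 CPM (456 to 636) and 630 CPM (529 to 745) in the same classes. Its ratio was 0.31 in pairs below the median depth, under the size rule. H1f0, a linker histone of slowly dividing cells, had 41 UMIs against 15 (1.44, 0.56 to 2.40), with ratios of 3.65 in pairs below the median depth and 0.29 in pairs above it. Tubb3, a neuronal tubulin, was at 0.69 (-0.14 to 1.55), while Tubb2a was among the lowest genes.

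The 12 lowest genes were Melk, Rbmx2, Arl2bp, Naprt, Hes6, Gtf3a, Dlat, Asnsd1, Eef1akmt1, Ahctf1, Rrp1 and Tubb2a, at -1.94 to -0.88, and all 12 were still past 1.5-fold in the all-cell ratio. Melk, a mitotic kinase, had 12 UMIs against 46, in 11 and 27 cells, a log2 ratio of -1.94 (-3.00 to -1.005). Hes6, a basic helix-loop-helix factor of differentiating progenitors, had 16 UMIs against 43 (-1.43, -2.36 to -0.57). Dlat, a subunit of pyruvate dehydrogenase, had 19 against 48 (-1.34, -2.19 to -0.55), and Gtf3a, the transcription factor of 5S ribosomal RNA genes, 40 against 86 (-1.11, -1.69 to -0.55). Rrp1, which acts in ribosomal RNA processing, was at 162, 104 and 55.2 CPM with 0, 1 and 2 or more factor UMIs. In pairs below the median depth Asnsd1 (-0.58), Tubb2a (-0.55) and Eef1akmt1 (0.07) of the lowest genes, Gon4l (0.42) of the highest, and Tubb3 (0.26) were under the size rule. These 24 genes were named for their size, so their values are a description.

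**Figure D5:**
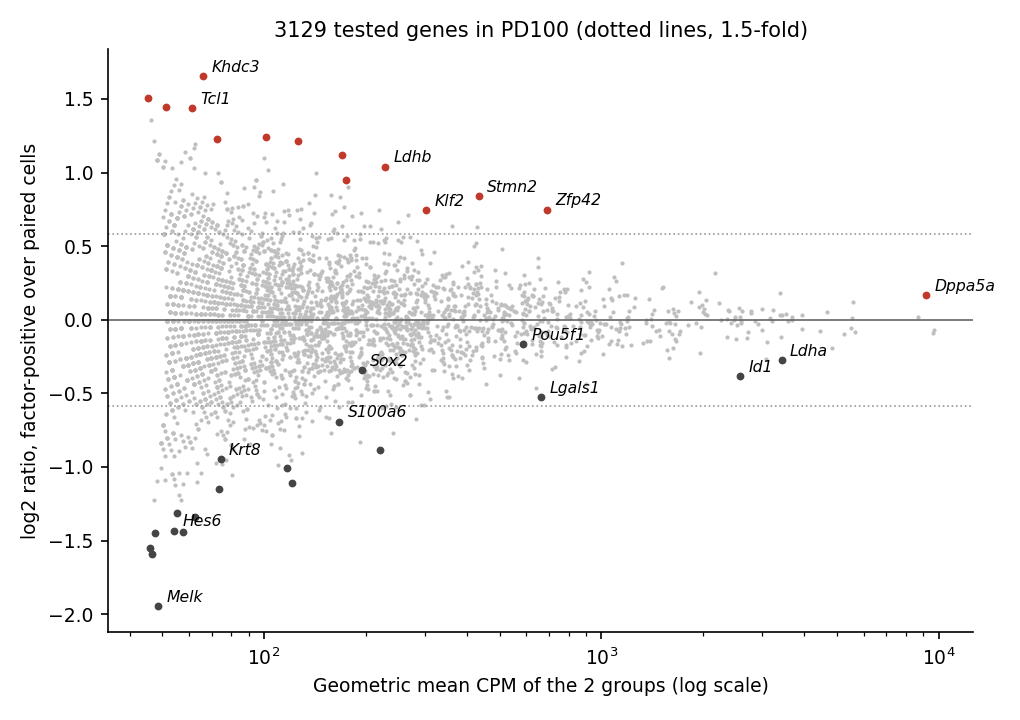
Log2 ratio of CPM between factor-positive and paired cells (y axis) against the geometric mean CPM (x axis, log scale) for the 3129 tested PD100 genes. The 12 highest and 12 lowest genes and others named in the text are marked, and dotted lines give 1.5-fold. Spread narrows with level, and Zfp42, Stmn2 and Ldhb lie past 1.5-fold at over 200 CPM.

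Markers of other cell types were detected in both groups, at levels that differed by list. Feeder fibroblast markers summed to 26 UMIs in 17 factor-positive cells and 9 UMIs in 7 paired cells. That was 53.5 CPM against 18.6 CPM. Of 16 genes, 7 had a UMI in factor-positive cells and 3 in paired cells. Col3a1, Col5a1, Loxl1 and Twist1 had UMIs in factor-positive cells and 0 in paired cells, while Col1a1, Col1a2 and Dcn were at 0 in both. Over all 577 factor-negative cells the feeder markers summed to 34 UMIs in 28 cells, at 27.2 CPM. There 10 of the genes had a UMI, among them Loxl1, Twist1, Col1a2 and Dcn, while Col3a1 and Col5a1 were at 0. The contrast with the paired cells thus depended in part on the choice of partners. The factor-positive cell with the most, 4 UMIs, held them from 1 gene. Extraembryonic endoderm markers were detected in 90 factor-positive cells (45%) and 98 paired cells (49%). They summed to 177 and 213 UMIs, of which Sparc, a matrix protein, gave 120 and 131. Of 24 genes, 17 and 18 had a UMI. Over all factor-negative cells, whose median depth was lower, 43.3% had an extraembryonic endoderm marker. Any of the 5 endoderm genes of the filter was seen in 7 factor-positive and 17 paired cells. Trophoblast markers were detected in 35 and 47 cells (17.5% and 23.5%), and in 18.2% of all factor-negative cells. They summed to 73 and 64 UMIs, 16 of them in 1 factor-positive cell, with Cdx2 and Elf5 at 0. Mesoderm markers summed to 4 and 2 UMIs, and neural markers to 40 and 35, most of them Tubb3. The part of these in the results was not tested.

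Other genes that are unevenly spread over PD100 cells were counted in the same pairs. A Lefty1 or Lefty2 UMI was present in 49 of 200 factor-positive cells (24.5%, 18.7 to 31.1) and 50 of 200 paired cells (25%, 19.2 to 31.6). A UMI of S100a6, Krt17 or Plaur was present in 56 (28.0%, 21.9 to 34.8) and 69 (34.5%, 27.9 to 41.5). The intervals overlapped in both cases.

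The same rule was applied to PD800, where 585 of 900 cells (65.0%, 61.8 to 68.1) were factor-positive and 315 were not. The share expected after thinning to 1000 UMIs was 37.2%. Because factor-negative cells were the smaller group, 310 pairs could be made, at medians of 2426 and 2193 UMIs, so the factor-positive cells stayed deeper and shares of cells cannot be set side by side there. Of 3775 tested genes 154 (4.08%) were 1.5-fold or more higher and 150 (3.97%) lower.

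Zfp42 had 437 UMIs against 366 in PD800, or 535 and 491 CPM, a log2 ratio of 0.13 (-0.08 to 0.33). It stayed at 493, 509 and 495 CPM with 0, 1 and 2 or more factor UMIs. Klf2 was at 0.25 (-0.15 to 0.66), Tcl1 at 0.01 (-0.45 to 0.47) and Jam2 at -0.25 (-0.80 to 0.29), and each of these intervals included 0. Of the 20 tested naive genes in PD800 1 was 1.5-fold or more higher, Dppa4, a chromatin protein of pluripotent cells, at 0.74 (0.31 to 1.17), where PD100 gave 0.27 (-0.08 to 0.62). The naive median was 0.13 in PD800.

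Other genes stood apart between the libraries. Ldhb was at 1.04 in PD100 and at -0.18 (-0.32 to -0.04) in PD800, where it was far more abundant (984 and 1114 CPM). Lgals1 was at -0.53 in PD100 and 0.85 (0.39 to 1.32) in PD800, where it had 120 UMIs against 61. Ctnna1 kept its direction, at 0.64 (0.15 to 1.13), and so did Id1 at -0.21 (-0.37 to -0.05) and Phlda2 at -0.92 (-1.44 to -0.41). The difference between the libraries was not tested for any gene, since each passage had 1 library.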

How the data were processed

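Single-cell RNA-seq tables of DKO741 cells at PD100 and PD800 were used, 1 per passage. The deposited values are raw counts of UMIs, obtained by the authors with the inDrops pipeline and a GRCm38 (mm10) transcriptome. The submitters' processing notes also name Scanpy, and the annotation release is not given in the sources used here. Barcodes with at least 1000 UMIs and at most 20% mitochondrial UMIs were kept, and cells with 5 or more UMIs of 5 endoderm genes were set aside. Each member was paired once, the deepest first, with the unused cell with 0 factor UMIs nearest in total UMIs, within 10%. UMIs were summed over cells, divided by totals without the 4 factors (CPM), and given exact intervals. Genes with at least 50 UMIs over both groups were compared by size (1.5-fold), and lists by counts and medians. Named genes were 2 to 4 examples of each list, the 12 highest and 12 lowest genes by the interval end nearer to 0 (with a UMI in at least 20 cells and at most 25% of UMIs in 1 cell), and Terc, Hmgn1, Pou5f1, Sox2, Lefty1, Lefty2 and the Zscan4 family. Genes described beyond that rule were chosen after their values were seen. The members, the lists and this rule were chosen with earlier results of these data known. Scrublet in Scanpy 1.11.5 called 6 of 777 cells as doublets, 1 of them a member, and these were left out only as an alternative. The steps were tried on simulated counts in which cells of a group differed by depth and counting error alone. That trial cannot show how the intervals behave where cells differ further. The steps were run with SciPy 1.17.1, pandas 2.3.3 and NumPy 2.4.6 under Python 3.11.15. UMIs of genes with overlapping or near-identical copies may be split by the counting. Whether strand was used in counting is not given in the sources used here.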

Additional observations from a re-analysis of the deposited data

Results flagged for a closer look

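Ldhb had a log2 ratio of 1.04 between factor-positive and paired cells in PD100 and of -0.18 in PD800, with intervals on opposite sides of 0. Lgals1 was at -0.53 in PD100 and 0.85 in PD800. Chrac1, a histone-fold subunit of a chromatin remodelling complex, was at -0.74 in PD100 (33 UMIs against 55) and 0.91 in PD800 (101 against 49). These 3 genes were picked because their directions were opposite in the 2 libraries. The difference was not tested, since each passage had 1 library, and the PD800 pairs were less closely matched in depth.

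The barcodes left out by the filters also held factor UMIs. In PD100 the 4 factors together were at 89.1 CPM (22 UMIs in 19 of 477 barcodes), and in PD800 at 375.0 CPM (172 UMIs in 130 of 766 barcodes).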

How the results depend on the processing

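No paired analysis was possible because each passage had 1 library. Over 24 alternatives and 126 named genes, 2582 of 2892 gene values stayed within the counting interval of the reported value, and 267 of the 2892 had the other sign. For genes past 1.5-fold in the pairs 22 values had the other sign. Zfp42, Ldhb, Lgals1 and Tcl1 kept their direction in all 23 alternatives run on them. So did other named genes, among them Klf2, Jam2, Ube2b, S100a6 and Pim1, so this does not set Zfp42, Ldhb, Lgals1 and Tcl1 apart. Some alternatives could hardly move a ratio. The minimums of 100 and 20 UMIs leave it unchanged by construction, and other scalings of the totals moved it very little. The counts of values that stayed in place or kept their direction therefore overstate stability. The PD100 counts of genes 1.5-fold or more higher and lower were 128 and 107 for cells with 2 or more factor UMIs, 106 and 96 in pairs below the median depth, 46 and 56 after thinning to 1000 UMIs, 56 and 45 at a minimum of 100 UMIs, 644 and 640 at 20 UMIs, and 29 and 27 at 2-fold. Lower genes numbered 384 with no matching and 396 with depth strata, and PD800 higher genes 248 with no matching. By 1 factor, higher genes numbered 113 (Klf4), 110 (Nanog), 59 (Esrrb, 63 lower) and 44 (Tbx3, 48 lower). The member share was 31.3% at 2000 UMIs or more and 15.1% after thinning. The causes were not tested.

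List medians moved for p53 (0.197 at 2000 UMIs or more, 0.23 without Nanog), G2 and mitosis (-0.033 with 2 or more factor UMIs, -0.027 thinned, -0.264 by Tbx3), glycolysis (0.053 in shallower pairs, -0.165 by Nanog), stress (-0.172 thinned), core (0.065 by Klf4), Polycomb (-0.195 by Nanog, -0.216 without Klf4), S phase (-0.169 by Esrrb, 0.449 by Tbx3) and LIF (0.244 without Nanog). Among genes past 1.5-fold, signs turned for Krt8 (0.322 with endoderm-high cells kept, 0.002 thinned), for Khdc3 (-0.289) and Eef1akmt1 (0.073) in shallower pairs, and for Phlda3 (0.083) in deeper pairs. Thinning turned Gon4l (-0.168), Stmn1 (-0.239), Gtf3a (0.324), Eef1akmt1 (0.002) and Atf4 (0.265). Membership by Klf4 turned Ccna2 (-0.248) and Tubb3 (-0.521), by Nanog Ctnnb1 (-0.003), Phlda3 (0.113) and Psph (-0.134), by Esrrb Asnsd1 (1.581), Dnmt3a (0.259), Phlda1 (0.318) and Ccna2 (-0.004), and by Tbx3 Tubb2a (0.806), Ctnnb1 (-0.001) and Mthfd2 (0.414). Among genes under 1.5-fold that are named above, signs also turned for Sox2 (0.696), Lefty1 (0.323) and Lefty2 (0.778) in shallower pairs, for Pou5f1 (0.177), Krt18 (1.482) and Id1 (0.028) by Esrrb, and for Krt18 (0.214) with endoderm-high cells kept, and this is not a full list.

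A median of 2286 UMIs per factor-positive cell limits rare genes, and the intervals take no account of differences between cells of 1 group.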
